A study of Rattus norvegicus with 8 samples.

Results

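The growth hormone and insulin-like growth factor (IGF) axis of the liver was followed through 10 genes: the receptors Ghr and Prlr, the transcription factor Stat5b, the feedback inhibitor Socs2, the secreted products Igf1, Igfals, Igfbp1 and Igfbp2, and the transcription factors Cux2 and Bcl6. Members were all non-control probes of the array whose annotated gene name equalled 1 of these 10 symbols, which gave 16 probes of 30367 on the array, which carries 18497 genes with a symbol. Livers of 4 furan-treated rats were compared with livers of 4 control rats, with 1 single-colour Agilent array for each animal. Furan, a liver carcinogen of rodents, had been given by gavage for 90 days, 5 days a week, in doses of 8 mg/kg, and the animals were killed 24 hours after the last dose. All rats were male Fisher 344, an inbred strain, aged 18 weeks; what the controls received by gavage is not given in the sources used here. Levels are log2 processed signal with the 75th percentile of the array at 0, so a difference of 1 is a 2-fold change.

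In the liver, growth hormone binds its receptor, the associated kinase JAK2 phosphorylates STAT5b, and STAT5b enters the nucleus and drives genes such as Igf1, Igfals, Socs2 and Cish. IGF-1 circulates mostly in a complex with a binding protein and the acid-labile subunit encoded by Igfals. Male rats secrete growth hormone in pulses and females more continuously, and this difference sets the sex-specific expression of many liver genes, with Prlr more abundant in female rat liver and, in mice, Bcl6 higher in males and Cux2 in females.

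Sequences show what the arrays could and could not tell apart. The probes of Ghr, Igf1, Prlr and Socs2 below lie in coding sequence and are written 5′ to 3′ with the rn4 positions of the array annotation. The first Ghr probe (chr2:52524230-52524289, minus strand) codes for part of the extracellular domain, which the full-length receptor and the soluble growth hormone binding protein share, and the second (chr2:52497358-52497417, minus strand) ends on the stop codon of the full-length receptor, in capitals. The Igf1 probe (chr7:24587916-24587975, plus strand) spans the end of the mature hormone. The Prlr probe (chr2:59677666-59678170, plus strand, across an intron) covers the end of the extracellular domain, common to the long and short receptor forms. The Socs2 probe (chr7:32605827-32605886, minus strand) codes for the end of the SOCS box.
Ghr A_44_P320858: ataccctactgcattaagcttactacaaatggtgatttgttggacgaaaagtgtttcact
Ghr A_64_P041812: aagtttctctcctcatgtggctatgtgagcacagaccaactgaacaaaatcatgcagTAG
Igf1 A_64_P052740: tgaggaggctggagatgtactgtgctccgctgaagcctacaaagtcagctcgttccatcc
Prlr A_44_P187181: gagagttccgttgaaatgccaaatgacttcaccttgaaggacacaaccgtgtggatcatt
Socs2 A_42_P543004: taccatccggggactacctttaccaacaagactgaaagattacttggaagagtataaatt

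STAT5 proteins bind the palindrome TTCNNNGAA, which reads the same on both strands. It was searched in the 250 bases before the start of 33469 RefSeq promoters on GRCr8 and was found in 7.67% of them. Promoters were listed for 9 of the 10 genes, 10 promoters in all, and the motif occurred in 1 of them, a promoter of Prlr, 176 bases before the start. Cish, the gene of a feedback inhibitor of the receptor and the promoter in which STAT5 sites are well known, is shown beside it: it held 4 matches, 241, 230, 136 and 119 bases before the start, and it was 1 of the 2 promoters of the whole set with at least 4. The match is a description of these letters, not of a bound site. Both stretches are given on the plus strand with the motif in capitals, Cish from chr8:116850719-116850868 and Prlr from chr2:60909462-60909512.
Cish upstream: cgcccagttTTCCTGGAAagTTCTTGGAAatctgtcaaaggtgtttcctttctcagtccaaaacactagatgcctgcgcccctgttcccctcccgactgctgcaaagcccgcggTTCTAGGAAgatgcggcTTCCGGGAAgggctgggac
Prlr upstream: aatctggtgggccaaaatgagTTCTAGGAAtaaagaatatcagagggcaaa

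Furan-treated livers had lower levels of the growth hormone receptor, of Igf1 and its carrier Igfals, and of the feedback inhibitor Socs2. Cux2 was called lower on 1 probe alone, and that call was lost without any single control. The signal of Prlr was higher, on a probe that only 2 of the 4 control arrays measured above background. Of the 16 probes, 15 were tested, covering all 10 genes, and 9 were called at an adjusted p below 0.05 (limma, adjusted over 20268 tested probes). The called share was 60% of the tested member probes, against 33.8% of all tested probes. Of the 9, 8 were lower and 1 was higher after furan, where each direction took 16.9% of all tested probes. Called and at least 2-fold lower were 6 of the 15, and called and at least 2-fold higher was 1 (3.85% and 5.01% of all tested probes). For 8 of the 15 probes the furan and control values did not overlap, all of them lower after furan, against 36.4% of all tested probes in either direction (18.0% lower and 18.4% higher). The median change of the 15 was -0.85, against -0.03 over all tested probes. Of the 15, 14 were well above background on all 8 arrays, and no spot was saturated.

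Some features of the arrays move with the groups. The 75th percentile signal was 1256 to 1596 intensity units on the furan arrays and 827 to 1057 on the control arrays, and 73.2% to 78.5% against 70.9% to 74.8% of spots were well above background. Slide 1 carried furan 1, furan 2, control 1 and control 2, and slide 2 the other arrays. Hepatocyte markers were bright on every array, with a median level of 5.34 to 5.94 on furan arrays and 5.85 to 6.19 on control arrays. Of their probes 7 of 10 probes were lower and 1 was higher (median change -0.70), and their summed linear level was 839 to 1092 on furan arrays and 1269 to 1391 on control arrays. All 8 biliary and ductular markers were tested, and 4 of their 9 probes were higher and none lower (median 0.72; summed level 6.20 to 14.1 in furan-treated and 2.75 to 8.14 in control livers), with control 2 far above the other controls, at a median level of -0.69 against at most -3.28. Proliferation markers were higher for 15 of 16 probes (median 2.72). Some of these probes entered the test through the furan arrays alone, among them Aurkb, which changed by 3.20, and by 0.27 after normexp background correction. Mki67 A_42_P576823, well above background on every array, changed by 2.47, and by 1.43 after that correction. Stellate and matrix markers were higher for 1 of 10 probes, and no macrophage, endothelial or lymphocyte marker probe was called (9, 8 and 5 probes). The higher probe, Lrat A_44_P491942, changed by 1.37 and was well above background on only 1 control array. It entered the test through the furan arrays alone. After normexp it was called lower, at -0.297 (limma, adjusted p = 0.0256), where the median of all tested probes lay at -0.19. The brighter Lrat probe, A_44_P550748, was not called (0.587; limma, adjusted p = 0.137). Control 1 read low for the endothelial markers Lyve1 (-3.51 against -0.08 to 0.32 in the other controls), Stab2 (-3.21 against -0.71 to -0.31) and Kdr (2.29 against 4.04 to 4.24). It was not low for Cdh5 (-2.33 against -2.48 to -2.28). Kdr and Lyve1 were called under an alternative setting (lowest limma adjusted p = 0.00998 and 0.0120). These are whole-liver samples, so fewer hepatocytes and less RNA per hepatocyte cannot be told apart. The part of either in the changes below was not tested.

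**Figure D1:**
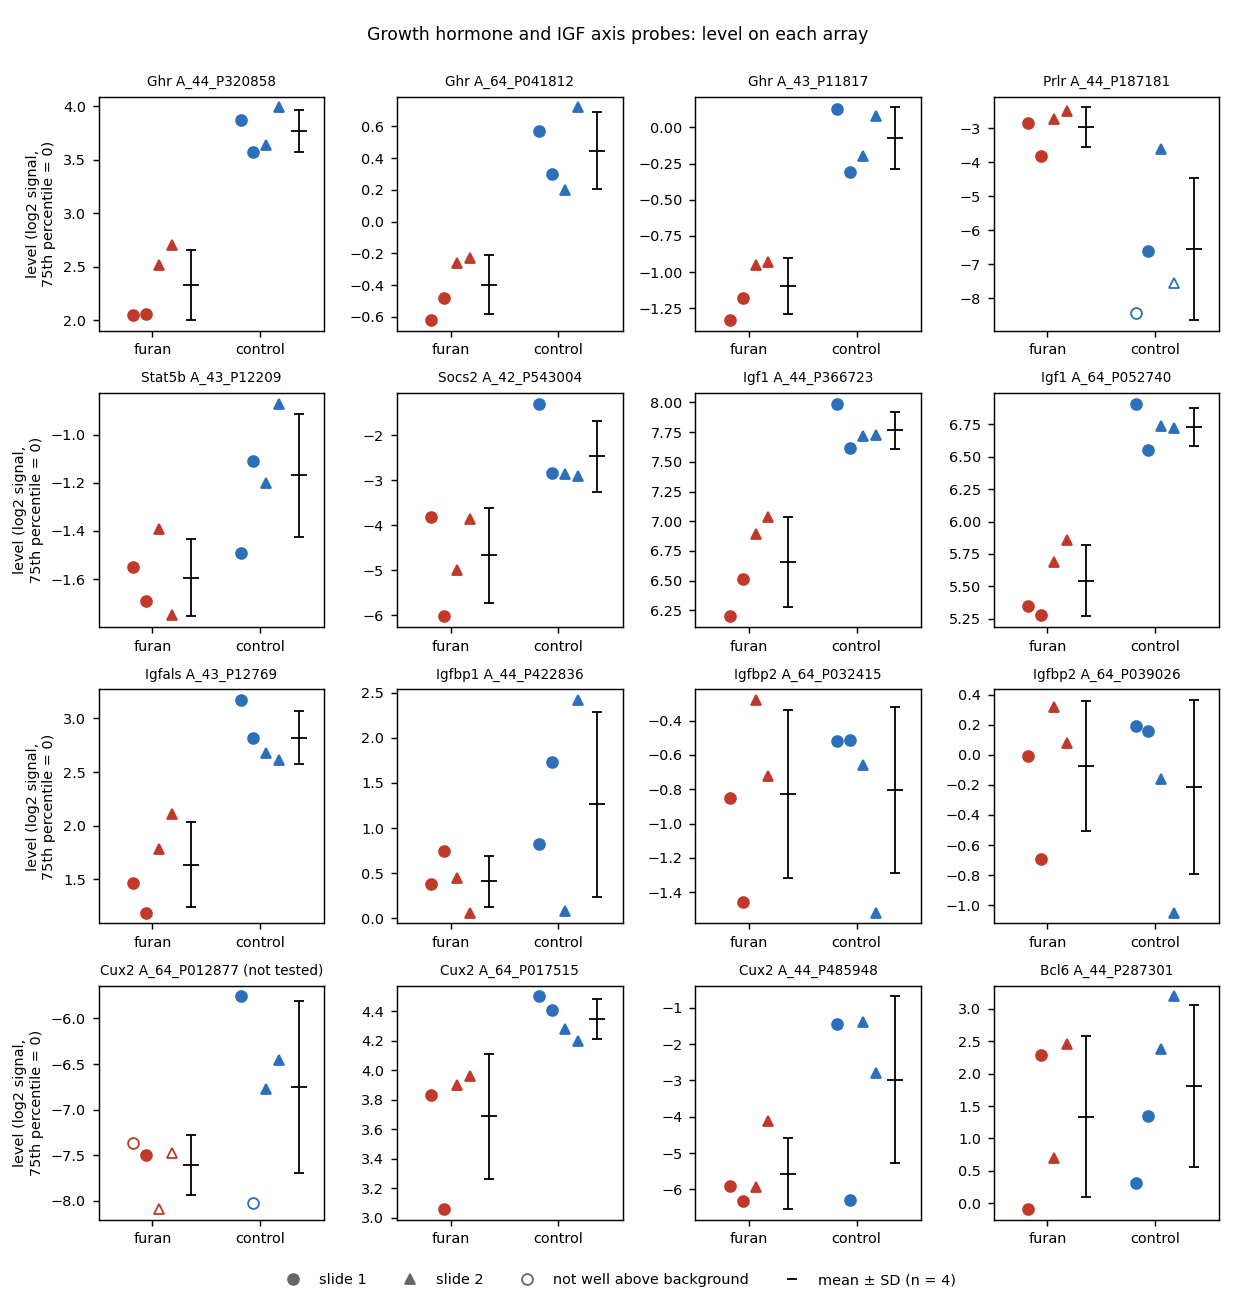
Level of each of the 16 probes on every array (y axis, log2 signal with the array's 75th percentile at 0), furan left of control, with circles for slide 1, triangles for slide 2, open symbols for arrays where the probe was not well above background, and bars for the mean ± SD (n = 4). The furan and control points are separate for all Ghr, Igf1, Igfals and Socs2 probes, and overlap for Prlr, Stat5b, Bcl6, Igfbp1 and both Igfbp2 probes.

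Ghr, the receptor through which growth hormone acts on hepatocytes, was lower on all 3 of its probes. The extracellular probe A_44_P320858 had levels of 2.05, 2.06, 2.52 and 2.70 in furan-treated livers, against 3.87, 3.57, 3.64 and 3.99 in control livers. All 4 furan values lay below all 4 control values, and the 2 furan animals on slide 1 were lower than the 2 on slide 2. The mean level was 2.33 ± 0.33 after furan and 3.77 ± 0.20 in controls (SD, n = 4 each), a change of -1.44 ± 0.18 (SE; 95% interval -1.85 to -1.02; limma, adjusted p = 0.00136). Probe A_64_P041812, which ends at the stop codon of the full-length receptor, read -0.62, -0.48, -0.26 and -0.23 in furan-treated livers, against 0.57, 0.30, 0.20 and 0.72 in control livers. It fell by 0.85 ± 0.15 (SE; limma, adjusted p = 0.00474). The third, A_43_P11817 (chr2:52496746-52496805, minus strand), lies past that stop codon and read -1.33, -1.18, -0.95 and -0.93 in furan-treated livers, against 0.13, -0.31, -0.20 and 0.08 in control livers. It fell by 1.02 ± 0.15 (SE; limma, adjusted p = 0.00203), again with no overlap between the groups.

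The extracellular Ghr probe changed more than the 2 probes near the 3′ end. Taken as a difference between probes on the same array, which shows unequal change and no ratio of abundance, A_44_P320858 minus A_64_P041812 was 2.67, 2.54, 2.78 and 2.93 in furan-treated livers, against 3.30, 3.27, 3.44 and 3.27 in control livers. The furan values lay below the control values, by 0.59 on average, with an exact two-sided permutation p of 0.0286, the smallest that 4 against 4 arrays can give. Over the 6 pairs of probes of 1 gene compared in this way the adjusted value was 0.0571, which misses 0.05. A_44_P320858 minus A_43_P11817 differed by -0.41 and A_64_P041812 minus A_43_P11817 by 0.18, each without overlap and with the same exact permutation p, 0.0286, and adjusted p, 0.0571. The Ghr pairs share probes, so these are not separate results, and the adjustment takes no account of that.

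**Figure D2:**
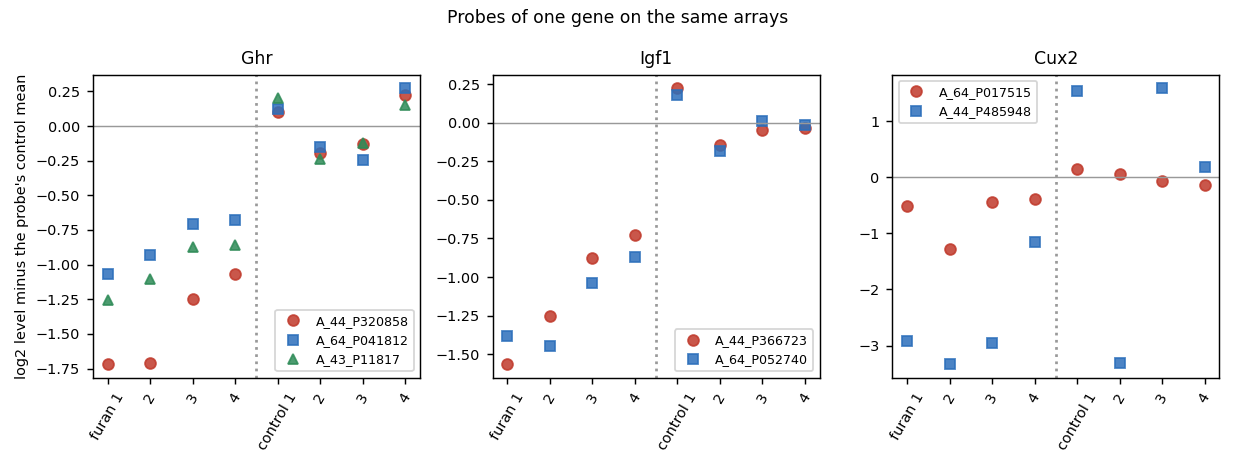
Log2 level minus the probe's own control mean (y axis) on each furan and control array (x axis), for the 3 Ghr, 2 Igf1 and 2 of the Cux2 probes, 1 colour and symbol for each probe. The Ghr probes fall together on every furan array with the extracellular probe lowest, the Igf1 probes stay close to each other, and the overlapping Cux2 probes part on all arrays but furan 4 and control 4, where they lie closer.

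Prlr, the receptor for prolactin and placental lactogens, abundant in female rat liver, was the only called member probe that was higher. Probe A_44_P187181 had levels of -2.84, -3.82, -2.72 and -2.48 in furan-treated livers, against -8.42, -6.60, -3.61 and -7.55 in control livers. The groups overlapped, because control 3 lay above furan 2, and only controls 2 and 3 were well above background. The mean level was -2.97 ± 0.59 after furan and -6.55 ± 2.09 in controls (SD, n = 4 each), a change of 3.58 ± 0.92 (SE; 95% interval 1.47 to 5.68; limma, adjusted p = 0.0189). Few probes varied more within groups: 99.6% of tested probes had a smaller pooled SD. The size depends on how the dim controls are treated, with a change of 1.07 after normexp background correction. Prlr entered the test through the furan arrays alone; where a probe had to be well above background on all 8 arrays it was not tested, which removed its call, the only higher one among the members. Without control 4 the call was lost (limma, adjusted p = 0.0506).

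Stat5b, the transcription factor that carries the growth hormone signal in hepatocytes, was not called. Its probe A_43_P12209 (chr10:89722209-89722268, minus strand) read -1.55, -1.69, -1.39 and -1.75 in furan-treated livers, against -1.49, -1.11, -1.20 and -0.87 in control livers. Control 1 lay within the furan range and the other controls above it. The change was -0.43 ± 0.15 (SE; 95% interval -0.78 to -0.08; limma, adjusted p = 0.0581). It passed the threshold with normexp (limma, adjusted p = 0.0150), with quantile normalization (0.0405), with a variance trend (0.0455) and without control 1 (0.0273). With normexp the change was -0.45, where the median of all tested probes lay at -0.19. In the other 16 settings it was not called. Among them were the replicate block (limma, adjusted p = 0.123), no filter on dim probes (0.115) and leaving out control 4 (0.135).

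Socs2, a suppressor of cytokine signalling that STAT5b induces and that limits growth hormone signalling in return, had the largest fall among the called member probes. Probe A_42_P543004 read -3.81, -6.02, -4.99 and -3.85 in furan-treated livers, against -1.30, -2.83, -2.85 and -2.91 in control livers. Every furan value lay below every control value, and control 1 stood above the other controls, which lay close together. The mean level was -4.67 ± 1.05 after furan and -2.47 ± 0.78 in controls (SD, n = 4 each), a change of -2.20 ± 0.56, or 4.58-fold lower (SE; 95% interval -3.48 to -0.92; limma, adjusted p = 0.0182). Without control 1 the change was -1.81, and after normexp with all arrays it was -1.54.

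Igf1, the main endocrine product of growth hormone action in liver, fell on both of its probes. A_64_P052740 read 5.35, 5.28, 5.69 and 5.86 in furan-treated livers, against 6.91, 6.55, 6.74 and 6.72 in control livers. All 4 furan values lay below the control values, and the spread was smaller among the controls. The mean level was 5.55 ± 0.27 after furan and 6.73 ± 0.15 in controls (SD, n = 4 each), a change of -1.18 ± 0.16 that left 44.1% of the control level (SE; 95% interval -1.54 to -0.83; limma, adjusted p = 0.00159). The probe further downstream in the gene, A_44_P366723 (chr7:24604715-24604774, plus strand), read 6.20, 6.51, 6.89 and 7.04 in furan-treated livers, against 7.99, 7.62, 7.72 and 7.73 in control livers. It fell by 1.11 ± 0.19 (SE; limma, adjusted p = 0.00410), and by 0.64 after quantile normalization. The change did not differ between the Igf1 probes beyond the spread (difference 0.08, exact permutation p = 0.514).

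Igfals, the acid-labile subunit that keeps IGF-1 in a long-lived serum complex, was lower by about as much as Igf1. Probe A_43_P12769 (chr10:14130378-14130437, plus strand) read 1.47, 1.19, 1.78 and 2.11 in furan-treated livers, against 3.17, 2.82, 2.68 and 2.61 in control livers. The groups did not overlap. The change was -1.18 ± 0.21 (SE; 95% interval -1.67 to -0.69; limma, adjusted p = 0.00481), with -1.67 on slide 1 and -0.70 on slide 2.

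The binding proteins Igfbp1 and Igfbp2 were not called. Igfbp1, which insulin represses and which binds free IGF-1, read 0.38, 0.75, 0.45 and 0.06 on A_44_P422836 (chr14:87954736-87954795, plus strand) in furan-treated livers, against 0.82, 1.73, 0.08 and 2.42 in control livers. Controls were spread widely, from near the lowest furan value to well above the highest. The change was -0.85 ± 0.46 (SE; 95% interval -1.90 to 0.19; limma, adjusted p = 0.182), and it depended on single controls: it was called without control 3 (-1.25; adjusted p = 0.0422) and was -0.47 without control 4 (adjusted p = 0.381). Igfbp2, a binding protein raised by fasting and in growth hormone deficiency, read -0.85, -1.46, -0.28 and -0.72 on A_64_P032415 (chr9:71993843-71993902, plus strand) in furan-treated livers, against -0.52, -0.51, -0.66 and -1.52 in control livers. On A_64_P039026 (chr9:71994131-71994190, plus strand) it read -0.01, -0.69, 0.32 and 0.08 in furan-treated livers, against 0.19, 0.16, -0.16 and -1.05 in control livers. Both probes put furan 2 lowest in its group and control 4 lowest in its group. The changes were -0.03 (95% interval -0.72 to 0.66; limma, adjusted p = 0.955) and 0.14 (-0.58 to 0.86; adjusted p = 0.760), so a 2-fold change of either sign lies outside both intervals.

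**Figure D3:**
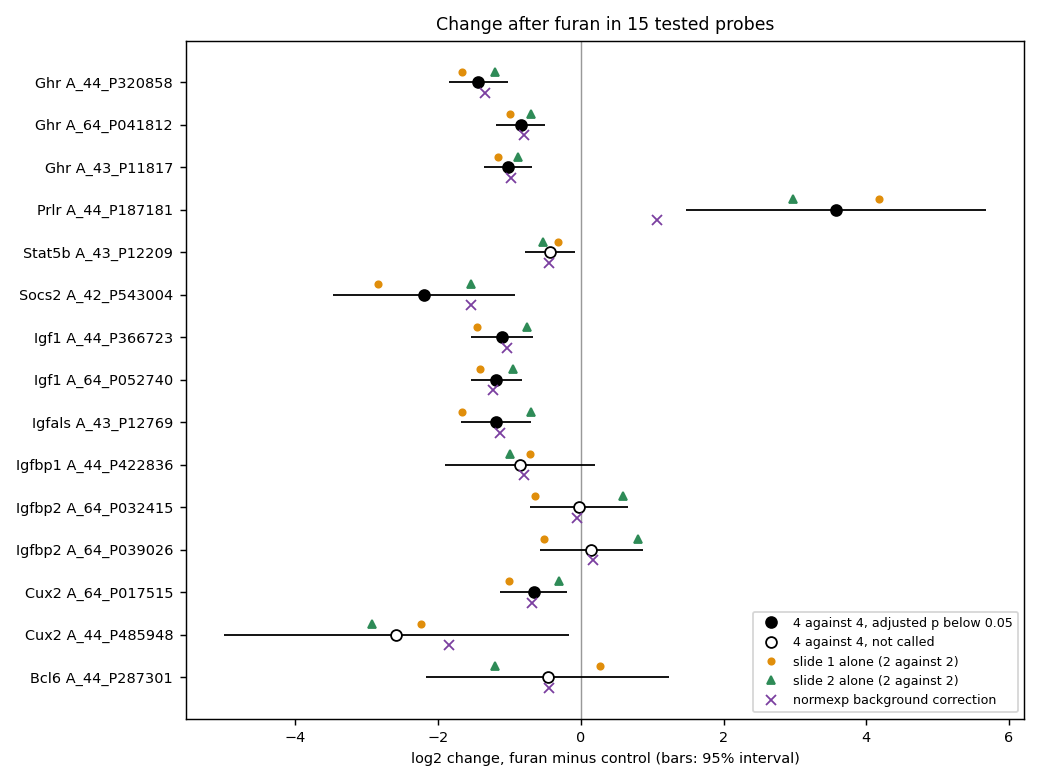
Log2 change, furan minus control, of the 15 tested probes (x axis) with 95% intervals; filled black circles passed an adjusted p below 0.05, orange circles and green triangles show slide 1 and slide 2 alone, and crosses show normexp background correction. Ghr, Socs2, Igf1 and Igfals lie left of 0 in every version, the Igfbp2 probes and Bcl6 change side between slides, and Prlr falls to 1.07 with normexp.

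Cux2, a female-biased repressor of male-biased genes in mouse liver, was called on 1 of 3 probes. A_64_P017515 (chr12:35910352-35910411, plus strand) read 3.83, 3.06, 3.90 and 3.96 in furan-treated livers, against 4.50, 4.41, 4.28 and 4.20 in control livers. The groups did not overlap, and furan 2 stood below the rest. The change was -0.66 ± 0.20 (SE; 95% interval -1.13 to -0.19; limma, adjusted p = 0.0376). The call was lost without any single control (limma, adjusted p = 0.0841, 0.0792, 0.0707 and 0.0591 without controls 1 to 4) and with the replicate number as a block (0.0740). A_44_P485948 (chr12:35910394-35910453, plus strand), which shares the 18 bases AAAGGTACCACATTCTCA with it, read -5.90, -6.31, -5.94 and -4.13 in furan-treated livers, against -1.44, -6.29, -1.40 and -2.80 in control livers. Control 2 sat among the furan values, and 99.8% of tested probes had a smaller pooled SD. The change was -2.59 ± 1.06 (SE; limma, adjusted p = 0.0915). It was -3.69 without control 2 (limma, adjusted p = 0.00517) and -2.07 without control 1 (0.193). The third probe, A_64_P012877 (chr12:35901248-35901307, plus strand), was well above background on 1 furan and 3 control arrays and was not tested. It read -7.36, -7.50, -8.09 and -7.47 in furan-treated livers, against -5.76, -8.02, -6.77 and -6.46 in control livers. The called probe A_64_P017515 was far brighter than both others. On average it read 9.25 above A_44_P485948 in furan-treated livers and 7.33 above it in control livers. Whether the called probe measures Cux2 alone was not tested.

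Bcl6, a repressor that is male-biased in mouse liver and opposes STAT5 at shared sites there, varied between animals more than between groups. Probe A_44_P287301 (chr11:79030469-79030528, plus strand) read -0.09, 2.28, 0.70 and 2.46 in furan-treated livers, against 0.31, 1.34, 2.38 and 3.19 in control livers. Both groups spread over more than 2 log2 units, and 99.0% of tested probes had a smaller pooled SD. The change was -0.47 ± 0.75 (SE; 95% interval -2.18 to 1.24; limma, adjusted p = 0.665).

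Socs2, Igfbp1 and Bcl6 differed widely between animals of the same group: 96.9%, 94.3% and 99.0% of tested probes had a smaller pooled SD. Cish, the feedback inhibitor with the STAT5 motifs shown above, is set beside them. Cish probe A_43_P16086 read -3.57, -3.81, -2.97 and -3.27 in furan-treated livers, against -1.25, -1.74, -2.23 and -1.98 in control livers, without overlap (change -1.61 ± 0.25, SE; limma, adjusted p = 0.00268). Its other probe, A_64_P046268, read -2.60, -3.63, -1.85 and -3.04 in furan-treated livers, against -0.73, -1.92, -3.35 and -2.66 in control livers. There the groups overlapped, and the change of -0.62 (95% interval -1.93 to 0.70, limma, adjusted p = 0.438) was not called. On that probe the sign differed between slides, with -1.79 on slide 1 and 0.56 on slide 2. Control 1 had the highest control value of Socs2 and of both Cish probes and the lowest control value of Bcl6. It was also the highest control for Igfals and both Igf1 probes, and the control with low endothelial markers described above. Whether a different cell content of that sample plays a part was not tested.

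**Figure D4:**
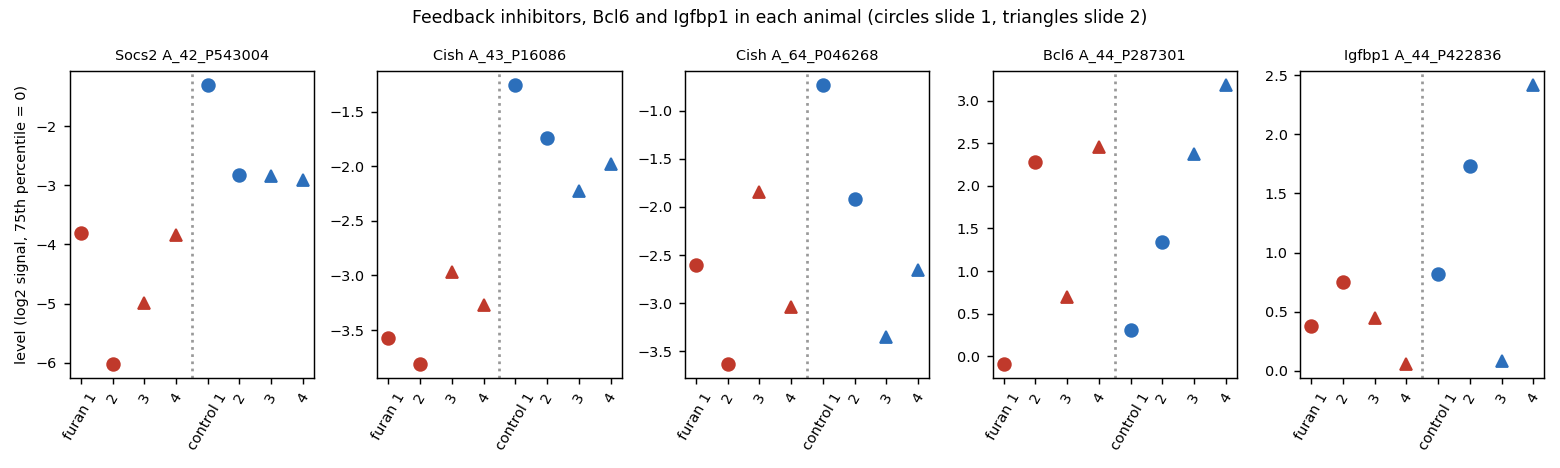
Level (y axis, log2 signal with the 75th percentile at 0) of Socs2, both Cish probes, Bcl6 and Igfbp1 in each furan animal (red) and each control animal (blue), with circles for slide 1 and triangles for slide 2. Control 1 is the highest control for Socs2 and both Cish probes and the lowest control for Bcl6; the Igfbp1 controls run from 0.08 to 2.42.

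All 8 called lower member probes fell more on slide 1 than on slide 2, as did 78.0% of all called lower probes. Tested as an interaction of slide and furan, a test added after the data had been seen, the difference passed 0.05 unadjusted for 4 member probes: Igfals (0.0134 by limma), Igf1 A_44_P366723 (0.0399) and both Igfbp2 probes (0.0422 for A_64_P032415 and 0.0317 for A_64_P039026). None passed after adjustment by limma (lowest adjusted p of a member probe 0.807), nor did any of the 20268 probes (0 adjusted, 1236 at an unadjusted p below 0.05).

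The other genes of growth hormone signalling included further feedback inhibitors and STAT factors that were lower, and none that was higher. Of 15 listed genes, all on the array, 12 were tested with 15 probes, of which 6 were lower, none higher and 9 not called (limma; median -0.40), where 33.8% of all tested probes were called and 16.9% were lower. Socs3, a feedback inhibitor induced by STAT3, changed by -1.48 ± 0.30 (SE; limma, adjusted p = 0.00734), Stat3 by -0.75 (0.00950) and Stat5a, the close relative of Stat5b, by -0.54 (0.00734). Jak2, the kinase bound to the receptor, was not called at -0.30 (limma, adjusted p = 0.169).

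The rest of the IGF axis gave a like count. Of 19 listed genes, 17 were on the array and 12 were tested with 15 probes: 6 lower, none higher and 9 not called (median -0.46), against the same 33.8% called and 16.9% lower over all tested probes. Igf2, the fetal growth factor, read -4.48, -5.10, -4.40 and -5.42 in furan-treated livers, against -4.15, -2.26, -3.35 and -3.15 in control livers. It fell by 1.63 ± 0.40 (SE; limma, adjusted p = 0.0154) with no overlap, at a low signal. Htra1, a secreted protease that cleaves IGF binding proteins, fell by 1.12 (limma, adjusted p = 0.00253), and the binding protein Igfbp4 by 0.87 (0.00257). Igfbp3, the main carrier of circulating IGF-1, changed by -0.46 (limma, adjusted p = 0.139) and the receptor Igf1r by -0.06 (0.897); neither was called.

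Among genes whose sex bias in rat liver follows the growth hormone pattern, male-biased ones were lower almost throughout. Of 14 listed, 13 were tested with 18 probes, 17 of them lower, none higher and 1 not called (limma; median -1.24; 16.9% of all tested probes were lower). Cyp2c11, the main male-specific P450, changed by -2.13 (limma, adjusted p = 0.000619), Hsd3b5, a steroid dehydrogenase, by -1.75 (0.00249) and Cyp3a18 by -1.66 (0.00354). Female-biased genes did not all move the other way. Of 11 listed, 7 were tested with 10 probes: 1 higher, 5 lower and 4 not called (median -0.73; 16.9% of all tested probes in each direction). Cyp2c12, the female-specific P450 that continuous growth hormone induces, read 1.84, 1.91, 1.80 and 2.00 in furan-treated livers, against -2.08, -2.63, -2.68 and -1.87 in control livers. It was higher by 4.20 ± 0.19 (SE; limma, adjusted p = 5.26e-05), with no overlap. Cyp2c7, female-predominant but not exclusive, fell by 2.04 (limma, adjusted p = 0.00561), Sult2a1 by 1.18 (0.0463) and Cyp2a1 by 0.73 (0.0230).

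Transcription factors linked to sex-biased liver expression were called about as often as all tested probes (33.8%). Of 12 genes tested with 14 probes, 1 was higher, 4 lower and 9 not called (median -0.46). Hnf4a, which maintains hepatocyte identity, fell by 0.98 (limma, adjusted p = 0.00755), and Rxra by 0.63 (0.00824). Esr1, an oestrogen receptor, was higher by 0.69 (limma, adjusted p = 0.00844) but gave -0.21 after normexp, where the median of all tested probes lay at -0.19.

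Genes of insulin and FOXO1 control, which share Igfbp1 as a target, were lower for 6 of 14 probes and higher for none (13 of 14 listed genes tested; median -0.49), where 16.9% of all tested probes were lower and 33.8% called. Pck1, a gluconeogenic enzyme that insulin represses, fell by 1.16 (limma, adjusted p = 0.00419) and Foxo3 by 0.89 (0.00535). The count of 6 became 3 without control 2 or without furan 2.

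Lipid and cell cycle genes tied to loss of the growth hormone receptor or of STAT5 in mouse liver moved both ways: of 10 genes with 12 probes, 4 probes were higher, 3 lower and 5 not called (median 0.37; 33.8% of all tested probes were called). Vldlr, a lipoprotein receptor, was higher by 1.38 (limma, adjusted p = 0.0118), Mogat1, an acylglycerol synthesis enzyme, by 1.14 (0.00192) and Cdkn2b, a cell cycle inhibitor that STAT5 itself is reported to induce in mice, by 0.90 (0.0235). After normexp Vldlr changed by -0.16 and Mogat1 by -0.07, where the median of all tested probes lay at -0.19. The sign of these changes therefore depends on the background correction. Vldlr was well above background on only 2 control arrays and entered the test through the furan arrays alone. Pparg, a regulator of fat storage that rises in mouse liver without the receptor, fell by 1.14 (limma, adjusted p = 0.00225). The count of 7 called probes fell to 3 without control 4 or without furan 2, and was 4 without control 1 or without control 3.

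**Figure D5:**
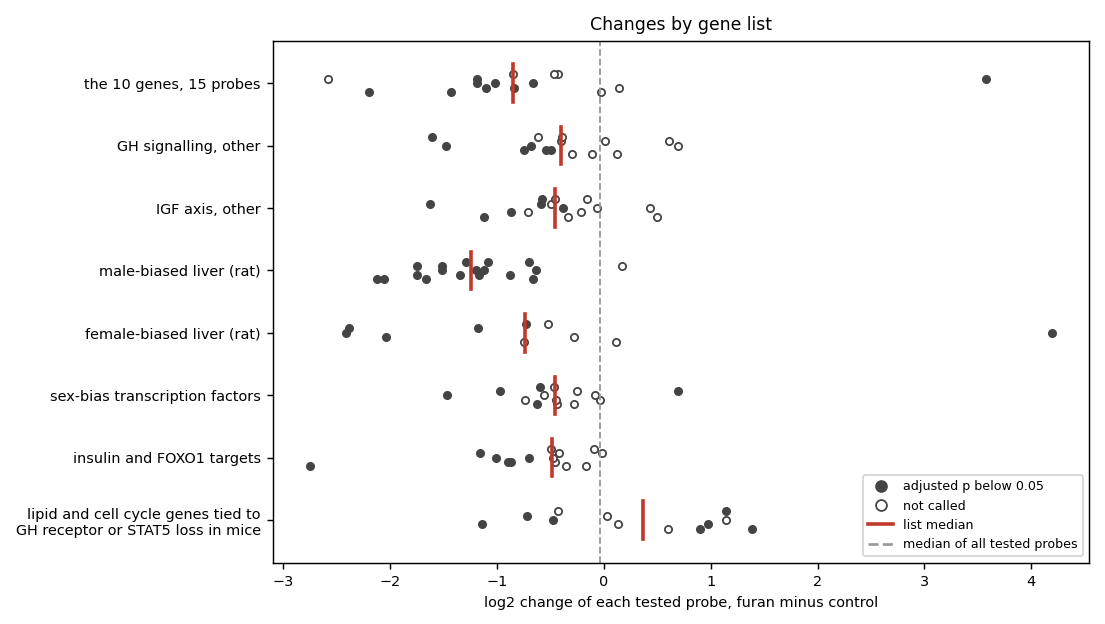
Log2 change of each tested probe, furan minus control (x axis), for the 10 genes and for 7 lists of related genes (rows); filled points passed an adjusted p below 0.05, red bars are list medians and the dashed line is the median of all tested probes (-0.03). The male-biased list lies left of 0 but for 1 probe, and Prlr in the top row and Cyp2c12 in the female-biased row stand apart at the right.

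The genes whose profile over the 8 arrays lay closest to that of a member were found by the root mean square difference after each probe was centred on its control mean. Agt was among the 2 nearest to Igf1 A_64_P052740 (0.0679), and nearest to Igf1 A_44_P366723 were Apoc1 (0.0765) and Pald1 (0.0796). Ghr A_44_P320858 lay closest to Serpina11 (0.102) and Cpq (0.110), and Ghr A_43_P11817 to Lrrc74a (0.0820) and Paqr9 (0.0925). Igfals had Gnmt (0.130) and Col6a4 (0.135) as its nearest. Socs2 had no close neighbour: Stfa2l3 and Il25 were the nearest, at 0.562 and 0.586.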

How the data were processed

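The deposited scanner files, made with Agilent Feature Extraction 10.7 per the submitters' processing notes and the file headers, give background-subtracted processed signals per spot in intensity units, and the authors' series table holds the same intensity scaled to a common 75th percentile per array. Flagged spots were left out, spots of a probe were averaged, and log2 signals were set against the array's 75th percentile of non-control spots. Tested probes were those called well above background in every animal of the furan or of the control group. Furan was compared with control with limma 3.58.1 in R 4.3.3 (lmFit and eBayes), two-sided, with Benjamini-Hochberg adjustment over 20268 probes. Exact permutation tests used SciPy 1.17.1 in Python 3.11.15. Probe positions are those of the array annotation, on rn4. Gene names of the lists were updated through RefSeq. The fit was tested on simulated data. The number of arrays limits the precision.

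The members and gene lists were chosen with earlier results of these data known. All members are named. Each list gave up to 3 called genes with the largest change in the more frequent direction and the largest of the other, on the brightest probe of a gene; Igf2, Jak2, Stat5a, Cish, Igf1r and Igfbp3 were named whatever their values. Some genes that this rule takes are not reported here, though list counts and medians include them. Nearest genes were taken for member probes called with a change of at least 1 on the log2 scale and well above background on all 8 arrays. The tests between probes of a gene and of slide against furan were added after the data had been seen. Alternatives were normexp background correction (offset 50), quantile normalization, the series table, other filters, a variance trend, the brightest probe of each gene, the slide or the replicate number as a block, single slides and left-out arrays. Same-numbered arrays deviated from their group means with correlations of -0.30, 0.10, 0.24 and 0.05, so the numbers were not treated as pairs. Nothing in the labels says whether animals were housed or dosed together.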

Additional observations from a re-analysis of the deposited data

Results flagged for a closer look

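Of 86 groups of 4 arrays examined, 5 held 1 array far from the other 3, where chance gives about 1 group in 20. Control 1 stood high for Socs2, at -1.30 where the remaining controls had -2.91 to -2.83. Control 4 had an Igfbp2 level of -1.52 on A_64_P032415 against -0.66 to -0.51. Furan 2 had a Cux2 level of 3.06 on A_64_P017515 against 3.83 to 3.96. Outside the members, furan 2 was low for Socs3 (-4.17 against -3.63 to -3.56), and control 3 was low for Foxo3, at -4.47 against -4.09 to -4.04.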

How the results depend on the processing

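Slides held 2 arrays of each group: fitted alone, slide 1 called 1 and slide 2 called 3 member probes, against 9 with both. Over all tested probes they called 529 and 1617, against 6852, and in the related gene lists 13 and 20, against 53. Leaving out 1 array gave 7 to 9 member probes, 4701 to 6773 probes in all and 38 to 50 in the lists. With the replicate block 8 member probes and 5110 probes in all were called; of the member probes it changed the call of Cux2 A_64_P017515 alone (limma, adjusted p = 0.0740). The block is no pairing here, and 2 of 4 furan arrays correlated best with the control of their own number. In the related lists, the IGF axis count of 6 was 3 with the replicate block or with no filter on dim probes, the insulin and FOXO1 count of 6 was 3 with no filter, and the count of 7 in the list on receptor or STAT5 loss was 4 with the block and 3 with no filter; the cause was not tested. Normexp called 11 member probes and 10172 in all (3070 higher and 7102 lower, against 3429 higher and 3423 lower with the processed signal). Directions reversed, without a call, for both Igfbp2 probes and for Bcl6: Igfbp2 A_64_P032415 (0.0782 without control 2 and furan 1, 0.59 on slide 2, and -0.27 to 0.18 with 1 array left out), Igfbp2 A_64_P039026 (-0.52 on slide 1, -0.14 to 0.35 with 1 array left out) and Bcl6 (0.27 on slide 1, -0.96 to 0.0089 with 1 array left out). Over all member probes and settings, 253 values kept direction and side of the threshold, 23 lost and 8 gained the call. Dim signals limit the precision for Prlr, Socs2 and Cux2 A_44_P485948.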
